A study of Mus musculus with 2 samples.

Results

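Cluster 5 of the deposited annotation of the dural meninges was examined, a group of cells led by Ptgds and Slc6a13. It is called arachnoid barrier cells here by its markers, a name that the deposited cluster numbers do not give. The parts of the cluster differed widely in these markers, as given below. Its members were the cells that carry cluster number 5 in the authors' deposited metadata, 667 of 12544 annotated cells. Of these, 295 came from the library of heterozygous controls (het, genotype Il33 H2B-mcherry-het) and 372 from the library of IL-33-deficient mice (KO, genotype Il33 H2B-mcherry-KO). Both genotypes carry the mCherry allele at Il33, on 1 chromosome in het and on both in KO, so het mice are controls with 1 intact copy and not wild type. All mice were taken at postnatal day 14, given as 2 weeks old. Per the labels, meninges were pooled from 5 to 8 mice for each sex of each genotype, digested for 30 min at 37 degrees, and sorted so that CD45+CD11b- lymphocytes, gp38+CD31- stromal cells and all viable cells were combined in parts of 1, 1 and 2. Shares of cells are set in part by this sort.

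The arachnoid is the middle layer of the meninges, and its outermost cells lie against the dura. Arachnoid barrier cells are joined by tight and adherens junctions that separate the cerebrospinal fluid from the dura, whose vessels are leaky, and they carry solute carriers and efflux pumps that move organic anions, amino acids and drugs. Slc6a13 encodes a GABA and taurine transporter, Slc22a6 and Slc22a8 encode organic anion transporters, and Ptgds encodes the lipocalin-type prostaglandin D synthase, a major protein of the cerebrospinal fluid. Apod encodes a lipid-carrying lipocalin and Wnt4 a secreted WNT ligand.

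Levels are given as CPM, which counts a gene's unique molecular identifiers (UMIs) in a class of cells per 1000000 UMIs of all genes in the same cells of 1 library. Each ratio divides the KO level by the het level. With 1 library per genotype there is no replicate and no test was made, so genotype, animals, sort and preparation cannot be told apart. The 95% intervals in parentheses cover counting error only. Cluster 5 held 5655809 UMIs in het and 7444182 in KO, with medians of 17472 and 19134.5 UMIs per cell. No cell barcode of cluster 5 was present in both libraries, against 14 shared barcodes over all annotated cells.

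Promoter windows of the transport genes and of interferon-response genes are shown because the former mark the cluster and some of the latter were lower in KO. Windows run from 250 bases before to 50 bases after the RefSeq transcription start (GRCm38.p6), 300 bases each, 5′ to 3′ on the gene's strand. In the transporter windows the capitals mark GTTAAT, a half-site of the HNF1 recognition sequence, searched on both strands. It was present in a window of 4 of 9 genes searched (Slc6a13, Slc22a6, Slc22a8 and Slc6a20a, but not Slc22a2, Slc13a3, Ptgds, Apod or Wnt4) and in 7.10% of all 32851 windows. Slc6a13 has 3 windows in the table, of which 1 held a match, 68 bases before that start. The match lay 56 bases before the start in Slc22a6 and in Slc6a20a, and 81 bases before it in Slc22a8.
Slc6a13 (chr6:121300490-121300789, plus strand): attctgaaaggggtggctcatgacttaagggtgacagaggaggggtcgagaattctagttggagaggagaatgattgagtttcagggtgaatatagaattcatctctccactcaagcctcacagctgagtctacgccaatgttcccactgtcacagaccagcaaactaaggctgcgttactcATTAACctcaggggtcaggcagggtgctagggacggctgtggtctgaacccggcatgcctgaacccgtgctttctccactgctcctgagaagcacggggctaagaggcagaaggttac
Slc22a6 (chr19:8617746-8618045, plus strand): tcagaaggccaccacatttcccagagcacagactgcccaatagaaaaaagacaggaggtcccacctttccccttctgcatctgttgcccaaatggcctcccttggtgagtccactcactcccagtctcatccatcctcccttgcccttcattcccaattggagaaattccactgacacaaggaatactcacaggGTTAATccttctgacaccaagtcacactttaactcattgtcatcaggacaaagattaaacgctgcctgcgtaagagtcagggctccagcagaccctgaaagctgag
Slc6a20a (chr9:123678783-123679082, minus strand): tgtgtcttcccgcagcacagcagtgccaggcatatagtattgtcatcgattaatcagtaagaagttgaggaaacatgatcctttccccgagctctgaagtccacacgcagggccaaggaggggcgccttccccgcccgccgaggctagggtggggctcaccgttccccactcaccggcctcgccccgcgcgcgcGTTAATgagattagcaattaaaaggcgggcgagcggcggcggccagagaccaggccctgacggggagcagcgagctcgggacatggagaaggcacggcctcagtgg

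In the interferon-response windows the capitals mark GAAANNGAA, a core of the interferon-stimulated response element, where overlapping matches run together. It was found on either strand in the windows of Ifit1, Ifit3, Isg15 and Cxcl10, but in neither of the windows of Ifit2, and in 8.56% of all windows. The windows of Ifit1, Ifit3 and Isg15 held 3 matches each and that of Cxcl10 held 1. A match describes letters and shows no binding.
Ifit1 (chr19:34640639-34640938, plus strand): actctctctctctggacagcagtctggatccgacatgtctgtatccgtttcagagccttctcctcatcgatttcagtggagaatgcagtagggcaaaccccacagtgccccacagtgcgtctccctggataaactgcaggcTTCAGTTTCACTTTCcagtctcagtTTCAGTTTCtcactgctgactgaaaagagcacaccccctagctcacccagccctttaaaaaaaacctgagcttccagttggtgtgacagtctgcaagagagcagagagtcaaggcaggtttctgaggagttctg
Isg15 (chr4:156200769-156201068, minus strand): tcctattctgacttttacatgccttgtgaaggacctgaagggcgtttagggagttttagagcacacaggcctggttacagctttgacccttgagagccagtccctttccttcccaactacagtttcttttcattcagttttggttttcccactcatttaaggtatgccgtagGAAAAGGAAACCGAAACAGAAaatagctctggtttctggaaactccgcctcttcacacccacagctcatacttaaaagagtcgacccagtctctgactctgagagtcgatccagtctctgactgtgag

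The name was first set against marker genes. Since the cells were clustered on these same data, the levels that follow describe the cluster and were not tested. Of 14 arachnoid barrier markers, 12 stood at least 2-fold above all other annotated cells, and the exceptions were Dpp4 and Krt18. The 14 include the 5 genes that name the cluster, whose high level was known beforehand. The share of all genes at that fold was not counted. Ptgds (chromosome 2, 25466709 to 25470046) led with a mean of 11383 CPM over the libraries and a fold of 67.1 over other cells (pseudocount 5 CPM). Slc6a13 (chromosome 6, 121300227 to 121337733) followed with 373 CPM and 29.4-fold, Apod with 4816 CPM and 25.9-fold, Slc22a6 (chromosome 19, 8618039 to 8628299) with 107 CPM and 17.5-fold, and Wnt4 with 156 CPM and 14.7-fold. The 30 leading genes also held the proline and imino acid transporter Slc6a20a at 119 CPM, the cystine transporter Slc7a11 at 368 CPM, and the sulfate transporter Slc13a4 at 75.1 CPM. The retinol carrier Rbp4 stood at 361 CPM and its receptor Stra6 at 68.8 CPM, and the gap junction gene Gjb2 at 330 CPM.

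Dural border and dural fibroblast markers were also present. Of 8 such genes 1, Foxc2, stood at least 2-fold above other cells in the cluster as a whole. In sub-clusters 1, 4 and 5 of the graph clustering given next, which hold 209, 88 and 83 cells, the 8 genes summed to 9898, 11080 and 8219 CPM, most of it Mgp, above the arachnoid barrier sum of 1748, 5696 and 4022 CPM. In sub-clusters 2 and 3 they summed to 1230 and 1397 CPM, below the arachnoid barrier sum of 57180 and 34444 CPM. The barrier sums are mostly Ptgds and Apod in sub-clusters 2 and 3. Of 8 inner arachnoid and pial markers, 5 stood at least 2-fold above other cells (Lama1, Rdh10, Cemip, Lamc3 and Col15a1). As the share of all genes at that fold was not counted, neither count of 8 can be read against a background. These 8 genes summed to 3426 CPM in sub-cluster 3, 2030 CPM in sub-cluster 5 and 1865 CPM in sub-cluster 2. In sub-clusters 1, 4 and 6 the sums were 858, 537 and 1075 CPM.

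The 5 genes that name the cluster were seen in overlapping but unlike sets of cells, and not all 5 in most cells. All 5 had a UMI in 123 of 667 cells (18.4%), and 51 cells (7.65%) had none of them. Only 1 of the 5 was seen in 169 cells (25.3%) and only 2 in 160 cells (24.0%). Slc6a13 was seen in 283 cells and the adherens junction gene Cdh1 (E-cadherin) in 126, but both in only 22. Cdh1 was seen in 7.77% of the cells with Slc6a13 and in 27.1% of those without. Slc47a1, a cation and drug exporter used here as a dural border marker, was likewise seen in 31 of the 283 cells with Slc6a13 and in 69.8% of cells without it. By contrast Slc22a6 was seen in 57.6% of cells with Slc6a13 and in 4.43% of those without. The other naming genes went the same way, Wnt4 with 73.9% and 20.6%, Ptgds with 79.9% and 43.75%, and Apod with 98.6% and 68.5%. Cldn11, the tight junction claudin of arachnoid barrier cells, was present in 610 cells, 85.5% of those with Slc6a13 and 95.8% of those without. Abcg2, an efflux pump gene, was seen in 88.1% of cells with Cdh1 and 61.0% of those without, and Slc47a1 in 71.4% and 38.6%. Slc6a13 and Slc22a6 were thus seen mostly apart from Cdh1, and Abcg2 and Slc47a1 more often with it.

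Shares of cells with a UMI were read against the B cell clusters 1 and 6, which should lack these genes and whose cells had medians of 4599 (het) and 4680 (KO) UMIs. Slc6a13 had a UMI in 46.1% of het and 39.5% of KO cluster 5 cells, against 2.28% and 1.56% of the B cells. Thinned to 1000 UMIs per cell the shares were 26.0% and 20.7%, against 0.191% and 0.237%. Cdh1, in 16.3% and 21.0% of cluster 5 cells, was seen in 0.518% and 0.778% of the B cells. At 1000 UMIs the Cdh1 shares were 2.55% and 3.33% in cluster 5, against 0.0473% and 0.152% in the B cells. For Ptgds the background differed between the libraries, with a UMI in 9.22% of het and 25.0% of KO B cells, against 54.2% and 62.9% of cluster 5 cells. At 1000 UMIs the Ptgds shares were 1.78% and 4.88% in the B cells and 26.0% and 29.8% in cluster 5.

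Graph clustering of the 667 cells on 1500 variable genes gave 6 sub-clusters, which are given by number and leading genes. Sub-cluster 1 (209 cells) was led by the WNT antagonist Sfrp4 at 899 CPM, with Inmt, Crym, Id4 and Ptgs2, the inducible prostaglandin synthase. Sub-cluster 2 (133 cells) was led by Ptgds and several transporter genes. Its Ptgds level was 50867.5 CPM, against 2555 in the rest of the cluster, Slc22a6 stood at 474 against 20.5 CPM and Slc6a20a at 523 against 24.4 CPM. Serpind1, Nnat and Slc13a3, a dicarboxylate transporter, were among its other leading genes.

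Sub-cluster 3 (102 cells) was led by the basement membrane collagen Col15a1 at 1900 CPM, against 36.7 in the rest, the eosinophil chemokine Ccl11 at 524 CPM, Apod at 30901 CPM, Osr2, Hpca and Crispld2. It had Slc6a13 at 656 CPM but Slc22a6 at only 24.9 CPM, Cldn11 at its lowest (272 CPM) and no Cdh1 UMI in 102 cells. Sub-cluster 4 (88 cells) was led by Dapl1, the neuropeptide gene Grp, Prg4, Msln, Cyp2f2 and Rspo3. There Cdh1 stood at 114 CPM and was seen in 56.8% of cells, the efflux pump gene Abcg2 stood at 261 CPM and Slc47a1 at 447 CPM, while Slc6a13 was at 10.4 CPM. Keratin gene Krt19 was also highest there at 266 CPM.

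Sub-cluster 5 (83 cells) was led by Krtdap, Tppp3, Cenpa and Igfbp3, with the mitotic genes Ccnb2, Hmmr and Cdc20. It held the highest Cldn11 level, 1083 CPM. Sub-cluster 6 (52 cells) was led by genes of other cell types, S100a8 and S100a9 of neutrophils, Cd74 of antigen-presenting cells, and Vpreb3, Cd79a and Cd79b of B cells. Its median depth was 27730.5 UMIs, the highest of the 6, both Xist and a Y-linked gene were seen in 22 of its 52 cells, and 19 were among the cells of highest Scrublet (doublet caller) score. The ratios of S100a8, S100a9 and the class II antigen presentation genes are given also without sub-cluster 6.

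**Figure D1:**
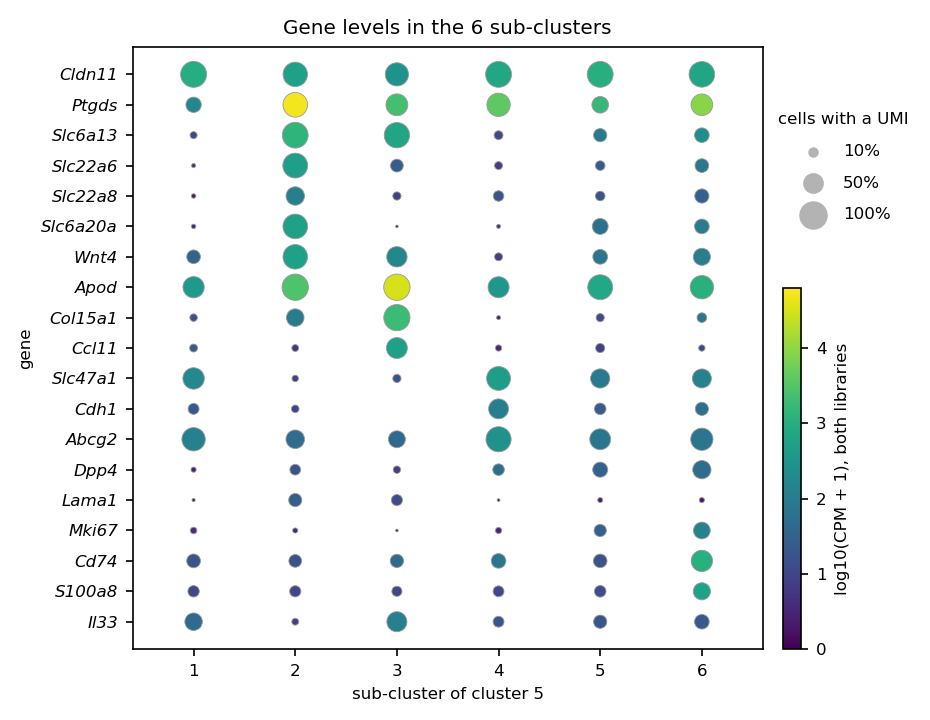
Level and detection of 19 genes in the 6 sub-clusters of cluster 5, both libraries together. Colour gives log10(CPM + 1) and dot size the percent of cells with a UMI. Slc22a6, Slc22a8 and Slc6a20a stand out in sub-cluster 2, Col15a1 and Ccl11 in sub-cluster 3, and Cdh1, Abcg2 and Slc47a1 in sub-cluster 4, while Cldn11 is present in each.

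Members of the gene lists by role also differed in the sub-cluster where they were highest. Measured genes had at least 100 UMIs over both libraries and were seen in 10% of cells in 1 library or both. Of 36 measured solute carriers, 14 were highest in sub-cluster 2 and 13 in sub-cluster 4. How many of all measured genes were highest in each sub-cluster was not counted, so these counts show no trait particular to a list. The cystine transporter Slc7a11 reached 1099 CPM in sub-cluster 2, and the bicarbonate transporter Slc4a10 reached 641 CPM in sub-cluster 4. Among 12 measured ABC transporters 7 were highest in sub-cluster 4, including Abcg2 and Abcb1a (122 CPM), the gene of P-glycoprotein, whereas Abca8a was highest in sub-cluster 3 at 303 CPM. Junction genes were lowest in sub-cluster 3 in several cases: Tjp1 stood at 37.7 CPM there and at 195.5 CPM in sub-cluster 5, and Gja1 at 70.4 CPM there and at 1080 CPM in sub-cluster 4. WNT ligands also divided, with Wnt4 (534 CPM) and Wnt6 (263 CPM) highest in sub-cluster 2, Wnt5a (429 CPM) in sub-cluster 3, Wnt16 (56.5 CPM) in sub-cluster 4, and the WNT agonist Rspo3 (392 CPM) in sub-cluster 4. Retinol carrier Rbp4 was at 755 CPM in sub-cluster 4 and at 3.20 CPM in sub-cluster 3.

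The first comparison of the libraries asks whether the cells were as frequent without IL-33. Cluster 5 made up 4.96% of het and 5.64% of KO annotated cells, a ratio of 1.14 (0.974 to 1.33). Among the stromal clusters 0, 4, 5 and 7 its share was 15.5% in het against 15.8% in KO, a ratio of 1.02 (0.874 to 1.19). Both intervals include 1.

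Inside the cluster the sub-clusters did not all keep their share. Sub-cluster 3 held 64 of 295 het cells (21.7%) and 38 of 372 KO cells (10.2%), which is a ratio of 0.471 (0.307 to 0.714). The other 5 had intervals that include 1, with ratios of 1.28 (0.960 to 1.71) in sub-cluster 1, 1.12 in sub-cluster 2, 1.04 in sub-cluster 4, 1.20 in sub-cluster 5 and 0.856 in sub-cluster 6. Mice were pooled by sex, so cells with an Xist UMI and no Y-linked UMI and cells with the reverse come from different pools of animals. In these, sub-cluster 3 had ratios of 0.435 (0.174 to 0.999) and 0.438 (0.246 to 0.765). As a share of all annotated cells it was 1.08% in het against 0.576% in KO, a ratio of 0.536 (0.349 to 0.813). Mast cell transcripts (Cma1, Mcpt4, Cpa3, Tpsb2, Kit and Fcer1a) in sub-cluster 3 summed to 1389 CPM in het and 9.89 CPM in KO, but 1 het cell carried 1314 of the 1329 het UMIs. With the cells of 2 or more mast UMIs left out, the sub-cluster 3 ratio was 0.489 (0.316 to 0.747). This step took only 3 het cells and 1 KO cell from sub-cluster 3, against 23 and 40 from sub-cluster 2. It could thus hardly move the ratio, and the part of mast cell RNA in the lower share was not tested.

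**Figure D2:**
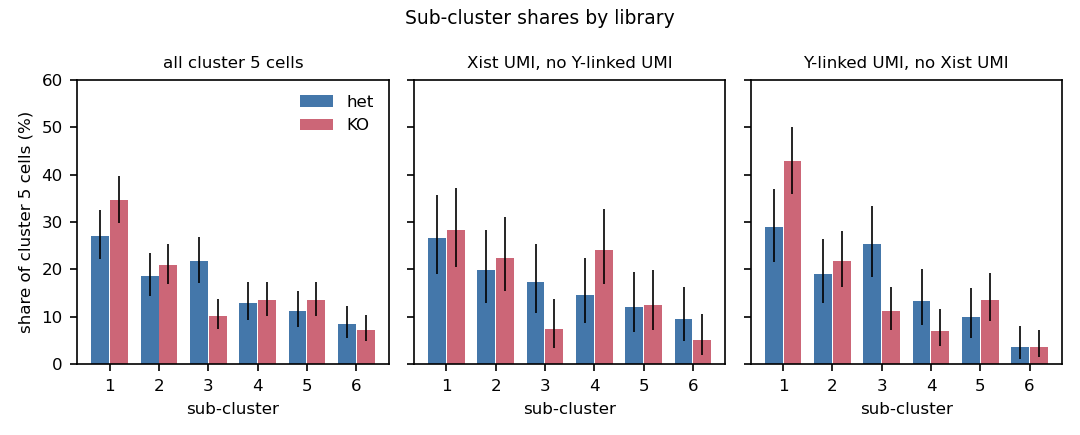
Share of cluster 5 cells in each sub-cluster for the het and KO library, over all cells (left) and in the cells of each sex pool (centre and right), with exact 95% binomial intervals as error bars. Sub-cluster 3 is lower in KO in each panel. For the others the interval of the ratio includes 1 in each panel, except for sub-cluster 1 among cells with Y-linked UMIs only, whose ratio was 1.49 (1.01 to 2.21).

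The targeted gene was lower in the KO library. Il33 (ENSMUSG00000024810, chromosome 19, 29925114 to 29960718, GRCm38), which encodes an alarmin cytokine of barrier and stromal cells, stood at 63.1 CPM (56.7 to 70.0) in het against 14.1 in KO (11.5 to 17.1), a ratio of 0.223 (0.178 to 0.279). Transcript of the mCherry allele may be counted here, so the KO level is no measure of intact Il33 RNA. Within cluster 5 the het level was highest in sub-cluster 3 at 175 CPM and sub-cluster 1 at 79.4 CPM, and it was 10.7 CPM in sub-cluster 2. In KO these were 23.1, 20.1 and 4.67 CPM. Il33 was detected in 44.7% of the het cells and 21.5% of the KO cells, against 3.32% and 1.21% of B cells, which had fewer UMIs per cell. Thinned to 1000 UMIs per cell the Il33 shares were 6.29% and 1.31%, against 0.331% and 0.158% of B cells. The receptor chain Il1rl1 had a UMI in 6 het and 4 KO cells of cluster 5.

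Of 9327 measured genes, 54 were at least 1.5-fold higher in KO (0.579%) and 143 at least 1.5-fold lower (1.53%), and 97.9% lay between. The median log2 ratio of all measured genes was -0.01. With at least 200 UMIs required, 21 of 7224 genes were higher and 61 lower, so these counts depend on the minimum. When each sub-cluster was given the same weight in both libraries (an alternative chosen after seeing the data), 50 genes were higher, of which 38 were among the 54, and 110 were lower, of which 85 were among the 143. Genes named next are the first 15 in each direction by the bound of the interval nearest to 1, and members of gene lists. The shares of 0.579% higher and 1.53% lower are the background for each count of list members below.

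Ptgds was the most abundant of the genes ranked as higher. It stood at 7802 CPM in het against 14965 in KO, a ratio of 1.92 (1.90 to 1.94), and at 1.87 with equal sub-cluster weights. Among the 29 het and 24 KO cells with fewer than 2 UMIs of other cell types' markers, Ptgds had a log2 ratio of -2.45 and was lower in KO. Those markers include Cdh5, at 53.1 to 145 CPM over the sub-clusters, and Kit, at least 2-fold above other cells in cluster 5. The filter thus also drops cells for genes that cluster 5 itself held, and the few cells left are no check on RNA of other cells. Sub-cluster 2 held 29567 of the 44128 het Ptgds UMIs and 98951 of the 111400 KO Ptgds UMIs. It stood at 28731 CPM in het against 66081 in KO. The cells there varied widely: in het the 55 cells ranged from 0 to 234121 CPM with a median of 1706, and in KO the 78 cells ranged from 0 to 306251 CPM with a median of 17859. The ranges overlapped almost fully while the medians stood far apart. In sub-cluster 4 the order was reversed, 5607 CPM in het against 2696 in KO, but 1 cell held 78.5% of the het UMIs there. The ratio was 2.26 among cells with Xist only and 2.59 among cells with Y-linked UMIs only. In clusters 0, 4 and 7 it was 1.63, 2.07 and 5.25, and in the B cells Ptgds stood at 31.6 CPM in het against 51.8 in KO (cluster 1) and at 6.37 CPM against 43.0 (cluster 6). The part of RNA from outside the cells in these ratios was not tested.

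Among the transporters of sub-cluster 2, Slc6a13 stood at 400 CPM in het against 346 in KO, a ratio of 0.863 (0.816 to 0.914) and 0.948 with equal sub-cluster weights. Within sub-cluster 2 it was at 1218 and 1348 CPM. Slc22a6 had a ratio of 1.13 (1.01 to 1.26) and Slc6a20a of 1.26 (1.14 to 1.40). Both lay on different sides of 1 in the sex pools, Slc22a6 with 0.840 among cells with Xist only and 1.25 among cells with Y-linked UMIs only, and Slc6a20a with 0.856 and 1.78. The intervals of both include 1 in the cells with Xist only, and the difference was not tested. Slc22a8, the organic anion transporter next to Slc22a6 on chromosome 19, was past the fold, at 21.7 CPM in het against 37.6 in KO, a ratio of 1.73 (1.39 to 2.16). In sub-cluster 2 it stood at 62.2 CPM in het against 149 in KO, and the ratio was 2.10 and 2.07 in the cells of the 2 sexes. Nnat, an imprinted gene of a small membrane proteolipid, was also a gene of sub-cluster 2 and stood at 184 and 292 CPM, a ratio of 1.58 (1.47 to 1.70). Among the few cells with fewer than 2 UMIs of other cell types' markers, a filter with the limit given above, the log2 ratio of Nnat was -1.14.

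Solute carriers as a whole had 3 of 36 measured members higher (Slc22a8, Slc13a4 at a ratio of 1.51, and the monocarboxylate transporter family member Slc16a11 at 1.64) and 1 lower, the thyroid hormone transporter Slco1c1 at 0.484 (0.355 to 0.656). Their median log2 ratio was 0.11, and 0.01 with equal sub-cluster weights. Slc22a2, an organic cation transporter, stood at 10.6 and 25.7 CPM, but with a UMI in 8.10% of cells it was outside the measured genes. Of 12 measured ABC transporters, 2 were lower, Abca8a at 0.613 and Abca8b at 0.622, and Abca8a was at 1.03 with equal sub-cluster weights. Abcg2 stood at 96.0 and 110 CPM, a ratio of 1.14.

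Junction genes differed little. Cldn1 was the 1 of 23 measured members past the fold, at 8.49 CPM in het against 14.2 in KO, and 0 were lower. The median log2 ratio of the list was 0.10. Cldn11 stood at 709 and 755 CPM, a ratio of 1.07 (1.02 to 1.11), Cdh1 at 32.4 and 32.6 CPM, a ratio of 1.01 (0.829 to 1.23), and Tjp1 at 107 and 122 CPM. Among 33 measured transcription factors, none was past 1.5-fold in either direction, near the background, since 97.9% of all measured genes lay within it, and Foxc1, a forkhead factor of meningeal development, stood at 225 and 256 CPM. None was past it either among 28 collagen and interstitial matrix genes, 24 BMP and TGF-beta genes and 12 insulin-like growth factor genes. In the WNT list, 25 members were measured and 2 were lower, the WNT antagonist Frzb at 0.641 and the transcription factor Lef1 at 0.548. Both were highest in sub-cluster 3, and with equal weights stood at 0.840 and 0.892. In the retinoic acid list Aldh1a1, a retinaldehyde dehydrogenase, was the 1 of 16 measured genes past the fold, at 58.9 CPM in het against 34.3 in KO.

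Several of the remaining genes higher in KO belonged to 1 sub-cluster. Cyp2f2, a cytochrome P450, stood at 9.90 CPM in het against 29.3 in KO, a ratio of 2.96 (2.20 to 4.04), with 39.1 and 178 CPM in sub-cluster 4. Inmt, a methyltransferase, stood at 14.7 and 34.8 CPM, a ratio of 2.37 (1.84 to 3.07), with 37.1 and 84.1 CPM in sub-cluster 1. In the few cells with fewer than 2 UMIs of other markers, a filter with the limit given above, the log2 ratio of Inmt was -0.46. Both were seen in few cells, Cyp2f2 in 16 of 38 het and 22 of 50 KO cells of sub-cluster 4, and Inmt in 22 of 80 het and 32 of 129 KO cells of sub-cluster 1. S100a8 and S100a9 had ratios of 2.59 and 2.05, but without the 1 cell with the most UMIs in each library these were 1.12 and 0.983. Without sub-cluster 6 the log2 ratios of S100a8 and S100a9 were 0.66 and 0.70, still past the fold. In sub-cluster 6, 1 KO cell carried 644 of 664 KO UMIs of S100a8. Fabp7, a brain fatty acid binding protein, had a ratio of 1.76, but 0.379 among cells with Xist only and 0.991 among those with Y-linked UMIs only.

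Genes lower in KO included several that led sub-cluster 3. Col15a1 stood at 390 CPM in het against 160 in KO, a ratio of 0.409 (0.381 to 0.439), and at 0.764 with equal sub-cluster weights. Within sub-cluster 3 it was at 2130 and 1538 CPM, a ratio of 0.722 (0.667 to 0.780), and the cells overlapped, from 0 to 4850 CPM in het and from 77.2 to 3833 CPM in KO. Crispld2 had a ratio of 0.453 in the cluster, 0.738 with equal weights and 0.539 within sub-cluster 3. Hpca, a neuronal calcium sensor, had 0.413, 0.733 and 0.646. Apod stood at 6173 and 3458 CPM, a ratio of 0.560 (0.551 to 0.569), and at 0.980 with equal weights. Its median over sub-cluster 3 cells was 33733 CPM in het against 30988 in KO. Sub-cluster 3 was made from the expression of these same cells and is led by these genes, so its share and their level are not independent. The part of its lower share in KO in the level of the whole cluster was not tested.

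**Figure D3:**
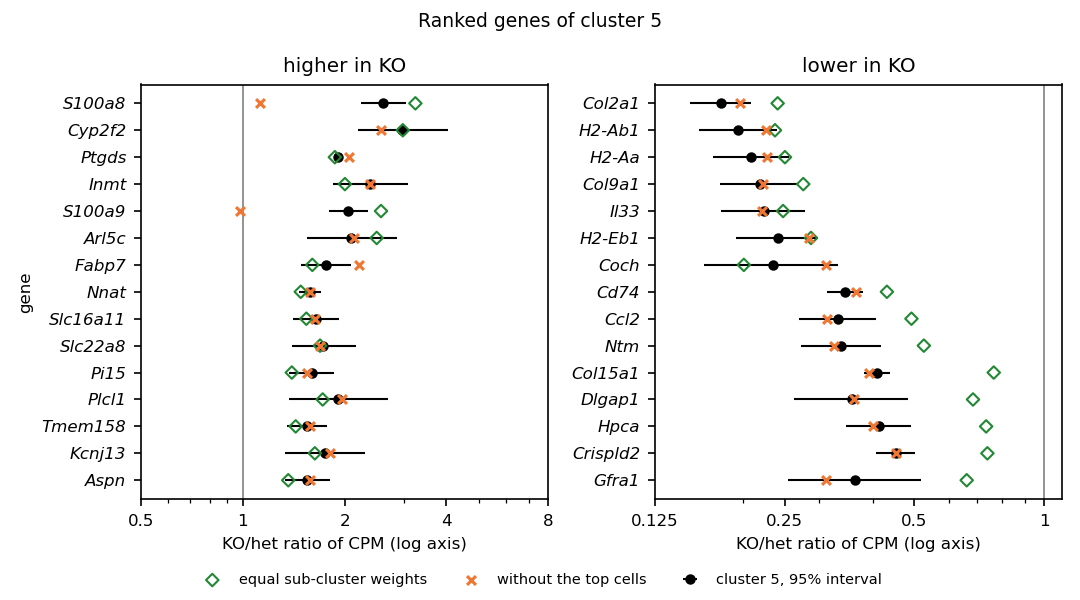
KO/het ratio of the 15 genes ranked first in each direction (log axis). Black points with bars are cluster 5 ratios with 95% intervals of counting error, green diamonds the ratios with equal sub-cluster weights, and orange crosses the ratios without the top cell of each library. Col15a1, Dlgap1, Hpca, Crispld2 and Gfra1 move toward 1 with equal weights, and S100a8 and S100a9 without the top cells.

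The class II antigen presentation genes H2-Ab1, H2-Aa, H2-Eb1 and Cd74 had ratios of 0.195, 0.209, 0.241 and 0.345. These 4 were the members past the fold among 11 measured MHC genes, against 1.53% of all measured genes lower. They were mostly in sub-cluster 6, where Cd74 stood at 1722 CPM in het against 547 in KO, against 20.2 and 115 CPM in sub-cluster 4. Without sub-cluster 6 the 4 log2 ratios were 0.085, 0.39, 1.06 and 0.52, above 0 for each. The macrophage markers summed to 101 CPM in het against 78.9 in KO over cluster 5, and the B cell markers to 149 and 133 CPM.

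Cartilage genes Col2a1 and Col9a1 stood at 139 and 73.0 CPM in het and 24.7 and 16.0 in KO, ratios of 0.178 and 0.219. Their ratios were unlike in the cells of the sexes, a difference that was not tested. Among cells with Xist only the ratios were 0.0276 and 0.0258, and among cells with Y-linked UMIs only they were 0.802 and 0.631. A UMI of Col2a1 was present in 11.7% of cluster 5 cells. Coch, which encodes a secreted matrix protein of the inner ear, stood at 24.6 and 5.78 CPM, a ratio of 0.235 (0.163 to 0.333), and the cell adhesion gene Ntm at 52.0 and 17.6 CPM, a ratio of 0.339 (0.273 to 0.417).

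Cytokine and chemokine genes had 5 of 22 measured members lower (the targeted gene Il33, Cxcl10, Ccl2, Ccl7 and Ccl11), against 1.53% of all measured genes. Their median log2 ratio was -0.16. The monocyte chemokine Ccl2 stood at 55.0 and 18.3 CPM, a ratio of 0.332 (0.270 to 0.408), but it was 2.17 (1.43 to 3.37) among cells with Xist only and 0.119 (0.0813 to 0.169) among cells with Y-linked UMIs only. Ccl7 differed in the same way, with 1.72 and 0.383. Ccl11 had a ratio of 0.609 in the cluster and 1.11 with equal sub-cluster weights. Il34 and Cxcl12, which act on macrophages and on leukocytes, stood at 0.832 and 0.991.

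Interferon-response genes had 4 of 18 measured members lower and 0 higher, against 1.53% and 0.579% of all measured genes. Ifit1 stood at 43.8 CPM in het against 20.4 in KO, a ratio of 0.466 (0.378 to 0.572), Ifit3 at 66.1 and 32.1 CPM, a ratio of 0.486, and Ifit2 at 12.0 and 7.12 CPM, a ratio of 0.592. Isg15, a ubiquitin-like protein, stood at 107 and 63.1 CPM, a ratio of 0.590 (0.522 to 0.667). The list's median log2 ratio was -0.27, and -0.24 with equal sub-cluster weights. The ratios were unlike in the cells of the sexes, a difference that was not tested: Ifit1, Ifit2, Ifit3 and Isg15 had ratios of 0.346, 0.247, 0.247 and 0.439 among cells with Xist only, and of 1.06, 1.16, 1.68 and 0.802 among cells with Y-linked UMIs only. The response element core in the windows of Ifit1 and Isg15 is printed above.

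Immediate early genes respond to growth factors and also to tissue dissociation. Of 19 measured members 18 were below a ratio of 1 and none was past 1.5-fold, with a median log2 ratio of -0.22. Over all measured genes the median log2 ratio was -0.01, and 97.9% lay within 1.5-fold. How many of all measured genes lay below a ratio of 1 was not counted. Fos stood at 2241 and 1832 CPM, a ratio of 0.818, and Egr1 at 905 and 686 CPM, a ratio of 0.759. In cluster 0 the ratios of Fos and Egr1 were 0.723 and 0.633. In the cell cycle list 4 of 12 measured genes were lower (Top2a, Ube2c, Cdk1 and Mcm3), against 1.53% of all measured genes. Top2a had a ratio of 0.545. Mki67, a gene of the list, stood at 141 CPM in sub-cluster 6 and 32.0 CPM in sub-cluster 5. In sub-clusters 1, 2, 3 and 4 it was at 3.39, 2.37, 0.640 and 2.88 CPM. Ratios of the list without sub-cluster 6 are not given here.

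**Figure D4:**
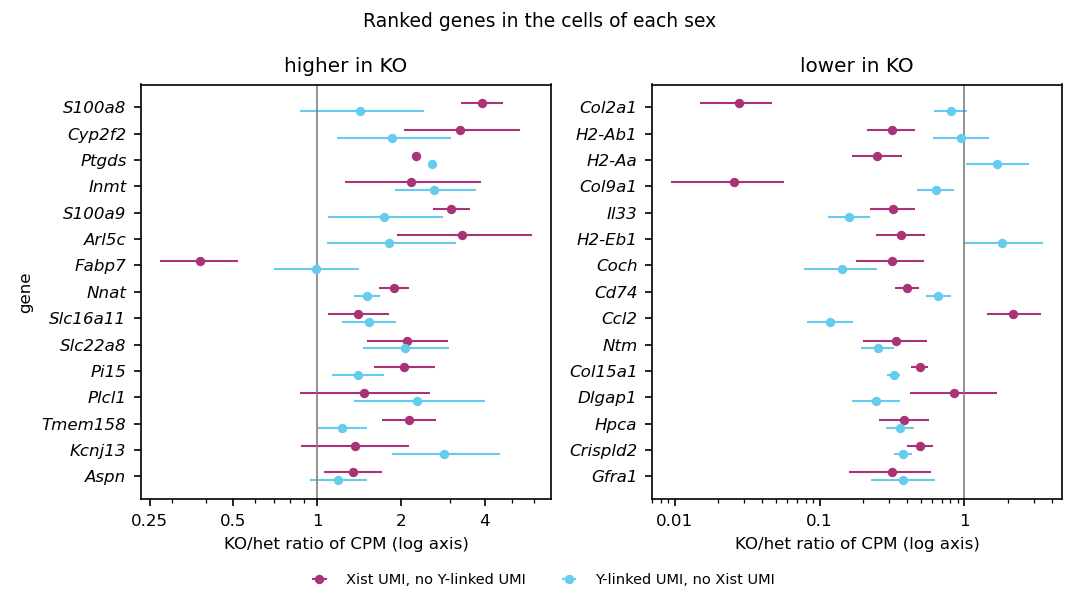
KO/het ratio of the same 15 genes in each direction among cells with Xist and no Y-linked UMI and cells with a Y-linked and no Xist UMI (log axis, 95% intervals of counting error). The points of Fabp7, H2-Aa, H2-Eb1 and Ccl2 lie apart, on the other side of 1 in at least 1 pool from their cluster 5 ratio.

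Of the 15 genes ranked first as higher, 14 were above 1 in the cells of both sexes, all but Fabp7. Of the 15 ranked first as lower, 12 were below 1 in both, the exceptions being H2-Aa, H2-Eb1 and Ccl2. These genes were ranked by their ratio over all cells of the cluster, and the cells of the sexes are most of those cells. The ranking thus sets much of the shared direction, and the counts are no independent check of it. Il33 had ratios of 0.322 and 0.160 in the cells with Xist only and with Y-linked UMIs only, Ptgds 2.26 and 2.59, Col15a1 0.491 and 0.324, and Cyp2f2 3.26 and 1.86.

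**Figure D5:**
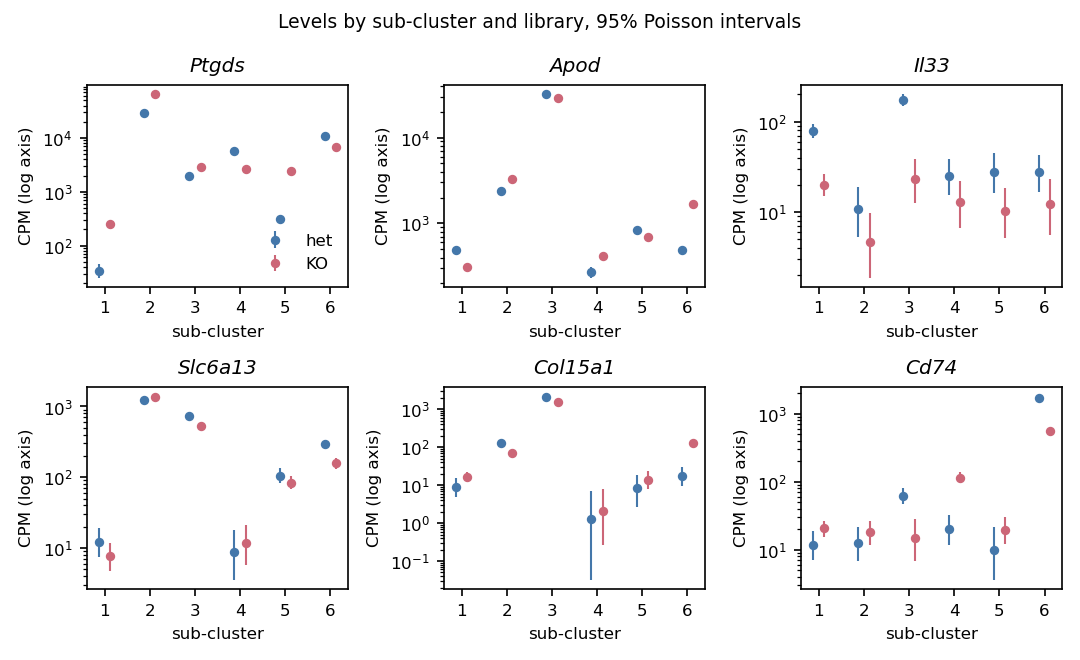
Level of 6 genes in each sub-cluster, het and KO (CPM, log axis, 95% Poisson intervals of counting error). Il33 is lower in KO in each of the 6 sub-clusters, with intervals of the ratio below 1 in sub-clusters 1, 3 and 5, Ptgds is higher in KO in sub-clusters 1, 2, 3 and 5 and lower in 4 and 6, and Apod and Col15a1 stay highest in sub-cluster 3 in both libraries.

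The same ratios were taken in the other stromal clusters. In cluster 0 Il33 had a ratio of 0.224 and Ptgds of 1.63, while Col15a1 had 1.04, Apod 0.927, Crispld2 1.07 and Hpca 1.49. In clusters 4 and 7 Col15a1 stood at 1.61 and 1.38. The difference of these ratios between clusters was not tested. Ifit1 and Ifit3 had ratios of 0.693 and 1.19 in cluster 0, 1.58 and 1.36 in cluster 4, and 0.150 and 0.294 in cluster 7.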

How the data were processed

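The authors deposited UMI counts per gene and cell, for which the submitters' processing notes name Cell Ranger 3.0.2 and mm10, and per-cell metadata with cluster numbers and the percent of mitochondrial UMIs. The cluster numbers come from the authors' own annotation, whose clustering steps were not given in the sources used here. Counts were taken from the deposited table of 12544 cells and 19347 genes, in which 141 of 3003092 values of cluster 5 differ from the matrices. UMIs were summed per library and class and scaled to CPM with Python 3.11.15. A gene was counted as higher or lower in KO by a rule of size, a ratio of at least 1.5 or at most its inverse. Ratios have exact conditional binomial, levels Poisson and shares of cells Clopper-Pearson 95% intervals, for counting error only. Ratios of cell shares were given the conditional interval too, which is not exact for them. Sub-clusters were made with scanpy 1.11.5 (20 principal components, 15 neighbours, Leiden at 0.5). No doublets were removed, and Scrublet scores were used to mark the highest 10% of each library.

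Named genes were the 30 leading genes over all other cells and 20 over clusters 0, 4 and 7, the first 15 in each direction by the interval's bound nearest to 1, the 10 leading genes of each sub-cluster, and members of 41 gene lists. The rankings by fold and by ratio skipped Xist and Y-linked genes, predicted genes, and genes of mitochondria, ribosomal proteins, hemoglobins, immunoglobulins and T cell receptors. Cluster, members and lists were chosen with earlier results of these data known, as were the promoter motifs. Scripts were tested on simulated data. Gene positions are from GENCODE vM21 and promoter windows from RefSeq, both on GRCm38, and all 14 genes searched had a window. Some genes that the rule names are not reported here.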

Additional observations from a re-analysis of the deposited data

Results flagged for a closer look

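Some ratios lay on opposite sides of 1, intervals included, in 2 groups of cells. None of these differences was tested. Between the sex pools of cluster 5 this was so for Ccl2, with a ratio of 2.17 (1.43 to 3.37) among cells with Xist only and 0.119 (0.0813 to 0.169) among cells with Y-linked UMIs only. H2-Aa had 0.250 (0.166 to 0.368) and 1.67 (1.03 to 2.79) in the same pools. Between cluster 5 and stromal cluster 0, Cd74 had 0.345 (0.313 to 0.379) in cluster 5 and 1.12 (1.05 to 1.19) in cluster 0. Sub-cluster 6 held 1252 of the 1364 het Cd74 UMIs of cluster 5, and without it the Cd74 ratio lay above 1, as given above. Col9a1 had 0.219 (0.177 to 0.269) and 1.33 (1.13 to 1.59). Aspn, a small leucine-rich proteoglycan gene, had 1.55 (1.33 to 1.81) and 0.873 (0.837 to 0.911). Fabp7 had 1.76 (1.49 to 2.08) and 0.690 (0.577 to 0.824), and Slc16a11 had 1.64 (1.41 to 1.92) and 0.774 (0.631 to 0.947). In cluster 5, Fabp7 was at 0.379 among cells with Xist only and at 0.991 among cells with Y-linked UMIs only.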

How the results depend on the processing

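With 1 library per genotype no replicate could be left out. No paired analysis was possible because each genotype has 1 library and no test was made. Counts from the matrices, other totals, division by the median ratio, leaving out the top cells, high Scrublet scores or sub-cluster 6, and equal sub-cluster weights kept the counts of higher and lower genes within 1.5 times of 54 and 143. The count of higher genes was 89 with each cell weighted equally, 98 among cells with Y-linked UMIs only, 100 at 50 UMIs, 21 at 200 UMIs and 5 at 2-fold. The count of lower genes was 61 at 200 UMIs, 25 at 2-fold and 72 without cells with 2 or more UMIs of other cell types' markers. That last setting left only 29 of 295 het and 24 of 372 KO cells and 1183 measured genes, of which the 72 are 6.09%, against 1.53% of 9327. Its markers include Cdh5 and Kit, which cluster 5 itself held, so it does not pick out cells free of RNA of other cells. There the Il33 ratio was 0.301, the ratio of cluster 5 among annotated cells 0.753 and among stromal clusters 0.677, and that of sub-cluster 3 was 0.769. Il33 was 0.322 among cells with Xist only and 0.160 among cells with Y-linked UMIs only. Leiden at 1.0 gave 10 sub-clusters in place of 6.

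Of 359 values of 33 named genes under the alternatives, 250 lay within the gene's interval, 91 lay outside it, and 18 lay on the other side of 1 for a gene past the fold. Without cells with other markers the log2 ratio was -2.45 for Ptgds, -0.46 for Inmt, -0.65 for S100a9, -1.14 for Nnat, -0.61 for Tmem158 and 2.15 for H2-Eb1. Without high Scrublet scores it was -1.60 for S100a8 and -1.76 for S100a9, and without the top cells -0.024 for S100a9. By sex, Fabp7 was at -1.40 (Xist only) and -0.013 (Y-linked only), Ccl2 at 1.12 (Xist only), and H2-Aa and H2-Eb1 at 0.74 and 0.85 (Y-linked only). Without sub-cluster 6, H2-Ab1, H2-Aa, H2-Eb1 and Cd74 were at 0.085, 0.39, 1.06 and 0.52. The cause was not tested. Of 306 medians of 28 lists, 278 moved by no more than the typical half-width of their members' intervals. The equal weights, the settings without sub-cluster 6 and the alternatives of sub-cluster 3 were chosen after seeing the data. Depth limits genes under 100 UMIs and shares in sub-clusters of under 100 cells.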

Other observations

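Outside the groups described above, the iron carrier transferrin gene Trf, one of the 20 leading genes over the other stromal clusters, stood at 223 CPM in het against 112 in KO, a ratio of 0.501 (0.459 to 0.548), and at 0.776 with equal sub-cluster weights. Its ratio was 0.857 among cells with Xist only and 0.321 among cells with Y-linked UMIs only, and 1.01 in cluster 0. The asialoglycoprotein receptor gene Asgr1, also a leading gene, stood at 88.8 and 130 CPM, a ratio of 1.47 (1.32 to 1.64), with 1.47 and 1.53 in the cells of each sex. Wnt5a, a noncanonical WNT ligand, stood at 177 and 137 CPM, a ratio of 0.778 (0.712 to 0.850), and at 0.900 with equal weights. The choroid plexus potassium channel gene Kcnj13 stood at 14.3 and 25.0 CPM, a ratio of 1.74 (1.34 to 2.29). The choroid plexus markers as a list summed to 36.6 CPM in het against 48.0 in KO, and the part of free RNA in these values was not tested.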
